A study of Mus musculus with 8 samples.

Results

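The Hox genes encode the homeodomain transcription factors of 4 chromosomal clusters, and 39 of the 24081 genes in the brainstem (BS) RNA-seq table were Hox genes, chosen by symbol alone (Hox, a cluster letter from a to d, and a paralog group number). The table held 11 genes of the Hoxa cluster on chromosome 6, 10 of Hoxb on chromosome 11, 9 of Hoxc on chromosome 15 and 9 of Hoxd on chromosome 2. Within a cluster, the genes lie in the order of their paralog groups, which run from 1 to 13, and in the embryo they are expressed in that order along the body axis. Low-numbered groups reach into the rostral hindbrain, and higher numbers begin progressively further back, in the caudal medulla and the spinal cord (SC). The forebrain and midbrain express none. The code is set by retinoic acid, FGF and Cdx signals, held by Polycomb and trithorax proteins, and read together with the TALE cofactors Pbx and Meis. Much of it persists in postnatal neurons of the hindbrain and SC, so the Hox profile of a BS sample is also a readout of which levels of the axis it contains.

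The libraries came from mice labelled as untreated C57BL/6 at P19 (the methods give P18/P19), 4 per group. Control mice carried Nestin Tv-a, p53 fl/fl and the driver Olig2-Tv-a/Cre, and KI mice carried hPDGFRA fl/+ in addition, a human PDGFRA cDNA in the Rosa26 locus that Cre releases from a loxP-flanked stop. Both groups therefore lacked p53 in Olig2-progenitors and carried the TVA receptor with no virus given, and the KI effect was measured only on that background. Olig2-progenitors make motor neurons before they make oligodendrocyte precursor cells (OPCs), so that the recombined cells are not OPCs alone. Replicates are written here as control 1 to 4 and KI 1 to 4, and the numbers mark no stated pairs.

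The reads recovered from the normalized counts numbered 21492789 to 27716846 per library, and each KI library (at most 24458589) was shallower than each control (at least 24816146). Gt(ROSA)26Sor, the transcript of the targeted locus, was at 82.9 to 93.9 normalized counts in controls and 328 to 605 in KI mice, so that each KI library was above each control. KI 4 stood apart from the other KI libraries: Pdgfra was at 3269 there and at 8939 to 11437 in KI 1 to 3, against 2565 to 3087 in controls, and the summed level of 7 OPC markers was 16038 against 5118 to 6868. Ttr, the choroid plexus transthyretin, was at 44.9 in control 4 and 237 in KI 3 and at 14985 to 97274 in the other 6. Xist, which is made from the inactive X chromosome, was at 4155 in control 2, 7792 in control 3 and 8943 in KI 4, and at 43.9 or less elsewhere. In bulk tissue, fewer cells of a type and less RNA per cell cannot be told apart.

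Of the 39 Hox genes, 22 reached the minimum mean of 10 normalized counts and were tested (7 Hoxa, 8 Hoxb, 4 Hoxc and 3 Hoxd genes). They comprised 10 genes of groups 1 to 4, 11 genes of groups 5 to 8 and, from group 9, Hoxb9 alone. Hox genes together held 2989 to 10446 reads per library. Per kilobase of exon that no other gene shares, Hoxa5 had the highest mean level in controls (349 ± 233 normalized counts per kb, SD, n = 4), ahead of Hoxb8 (309 ± 287), Hoxb5 (275 ± 151), Hoxb3 (238 ± 62.8) and Hoxd3 (199 ± 69.1). Each step in this order was smaller than the SD of either gene between libraries. The genes were not compared within libraries, which all of them share. Among the lowest, Hoxb9 had 15.0 ± 19.4 and Hoxc8 3.73 ± 2.92 per kb. The tissue was thus led by genes of groups 3 to 8 and reached the group 9 genes at a low level.

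Paralog groups 1 to 3 were present in every library and varied least. Hoxa2, which patterns the rostral hindbrain and the second pharyngeal arch, was at 123, 97.8, 169 and 84.0 normalized counts in control 1 to 4 and at 189, 165, 89.9 and 199 in KI 1 to 4. KI 3 lay within the control range, and the other KI libraries were among the highest. Hoxb3, which acts in the caudal rhombomeres with Hoxa3 and Hoxd3, was at 428, 445, 659 and 374 in controls and at 728, 1083, 445 and 854 in KI mice. Here 3 KI libraries lay above all controls and KI 3 among them. Hoxb2, which has a part in facial motor neuron development, had a mean of 169 ± 55.7 (SD, n = 4) in control and 250 ± 88.1 (n = 4) in KI mice. Hoxa3 had 110 ± 39.5 and 156 ± 60.1, and Hoxd3 had 310 ± 108 and 402 ± 134.

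Hoxd1 did not follow the other rostral genes. This gene, known in mice for its part in the wiring of pain-sensing neurons, was at 86.5, 36.7, 141 and 33.2 in control 1 to 4 and at 11.8, 51.3, 14.5 and 79.2 in KI 1 to 4. KI 1 and KI 3 were the lowest of the 8 libraries, although KI 1 lay above every control for Hoxa2 and Hoxb2. Hoxb1, of the same paralog group as Hoxd1, held 3 reads in all, 1 in control 3 and 2 in KI 4.

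Groups 4 and 5 included the most abundant Hox transcripts. Hoxa5, which mice need for normal respiratory circuits, was at 188, 590, 1247 and 592 in controls and at 772, 1297, 558 and 1835 in KI mice. Control 1 was the lowest by far, and the KI range overlapped the rest of the controls. Hoxb5 was at 259, 710, 1250 and 731 in controls and at 854, 1457, 579 and 1871 in KI mice, so that the same libraries were low and high. Hoxc5, which acts with Hoxa5 in phrenic motor neurons, had a mean of 205 ± 118 in control and 355 ± 194 in KI mice. Of group 4, whose genes mark the caudal hindbrain, Hoxa4 had 221 ± 69.5 and 298 ± 114, Hoxb4 172 ± 84.0 and 262 ± 116, and Hoxc4 323 ± 147 and 478 ± 255 (control and KI means, SD, n = 4 each).

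Groups 6 to 9 differed most between libraries. Hoxb8, whose loss in mice causes excessive grooming, was at 126, 762, 1880 and 490 in controls and at 917, 1420, 250 and 2028 in KI mice. Control 1 and KI 3 were the low ends, and control 3 and KI 4 the high ends. Hoxd8, its paralog on another chromosome, was at 74.0, 36.7, 347 and 19.5 in controls and at 109, 157, 2.07 and 301 in KI mice. Control 3 and KI 4 were again high, and KI 3 held only 2 reads, but control 1 now lay above control 2 and control 4. The ratio of Hoxb8 to Hoxd8 ran from 1.70 in control 1 to 121 in KI 3, with 5.42 to 25.1 in the other 6 libraries.

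The other genes of these groups divided the same way. Hoxa6, Hoxb6 and Hoxb7 were lowest in control 1, at 10.7, 51.7 and 17.8 normalized counts against at least 39.1, 274 and 49.8 in the other controls. In contrast, Hoxa7 was at 35.7 in control 1, above 17.9 in control 2 and 10.7 in control 4. Hoxc6, which is needed for brachial motor neuron identity in the SC, was at 48.1, 30.1, 190 and 11.7 in controls and at 65.0, 94.8, 10.3 and 143 in KI mice. Its order of libraries was that of Hoxd8 and Hoxa7 rather than that of Hoxb6, although Hoxb6 and Hoxc6 are paralogs. Hoxc8, another brachial motor neuron gene, was near the detection limit, with 0 reads in KI 3, 1 in control 2 and at most 31 elsewhere. Hoxb9 had 113 normalized counts in control 3, 68.9 in KI 4, 2.07 in KI 3 and 10.3 to 26.6 in the other 5 libraries.

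**Figure D1:**
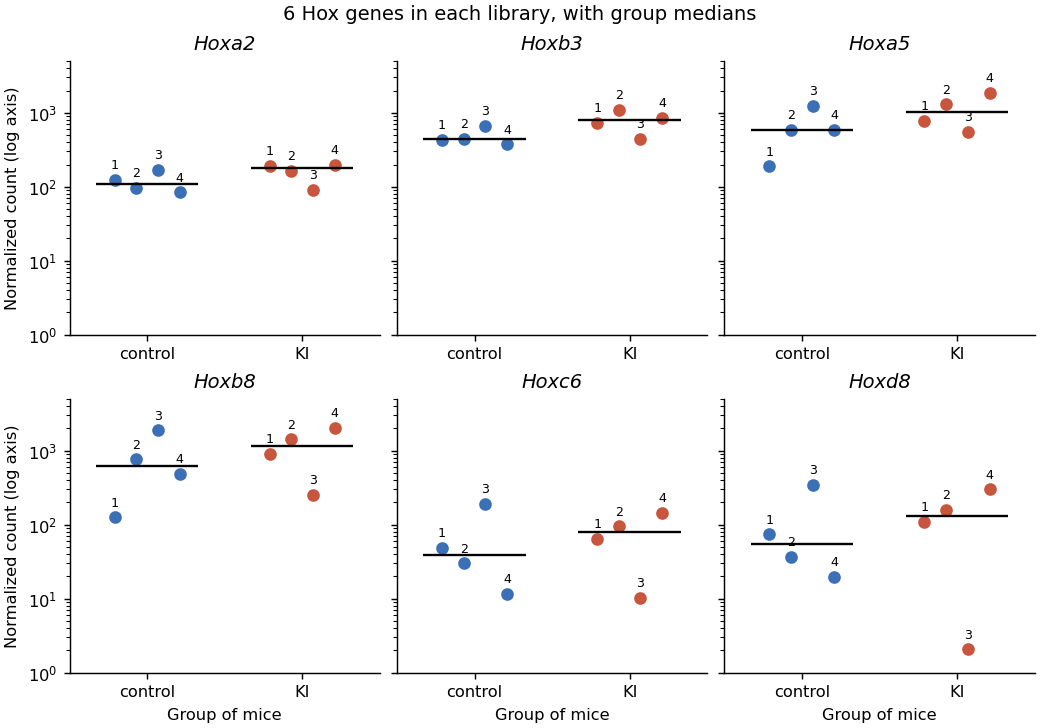
Normalized counts (log axis) of 6 Hox genes in the 4 control and 4 KI libraries, each point numbered by its replicate, with the group median as a line. Hoxa2 and Hoxb3 lay close together within a group, while Hoxb8 spanned 126 to 1880 in controls and Hoxd8 2.07 to 301 in KI mice.

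The proximal promoters of 4 members are shown because the members differ in the pattern just described. Hoxa2 stands for the steady rostral groups, Hoxa5 is an abundant gene of the middle groups, and Hoxb8 and Hoxd8 are paralogs whose order of libraries differed. Each is the RefSeq window from 250 bases before to 50 bases after the transcription start in GRCm38.p6, written along the strand of the gene. The windows lie at chr6:52164782-52165081 (minus strand) for Hoxa2, chr6:52204538-52204837 (minus strand) for Hoxa5, chr11:96281655-96281954 (plus strand) for Hoxb8 and chr2:74704365-74704664 (plus strand) for Hoxd8. The Hoxd8 window belongs to a start upstream of the gene position given with the counts, which begins at 74705489. Capitals mark matches, on either strand, to TGATNNAT (a Hox-Pbx motif), TGACAG (Meis), AGGTCA (a single retinoic acid receptor site) or TTTATG (Cdx and posterior Hox proteins).
Hoxa2: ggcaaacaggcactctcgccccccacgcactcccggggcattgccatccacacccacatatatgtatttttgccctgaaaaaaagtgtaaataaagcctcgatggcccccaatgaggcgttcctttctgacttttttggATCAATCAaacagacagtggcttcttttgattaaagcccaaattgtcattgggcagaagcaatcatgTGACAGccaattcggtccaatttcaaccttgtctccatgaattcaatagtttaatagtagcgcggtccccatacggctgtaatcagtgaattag
Hoxa5: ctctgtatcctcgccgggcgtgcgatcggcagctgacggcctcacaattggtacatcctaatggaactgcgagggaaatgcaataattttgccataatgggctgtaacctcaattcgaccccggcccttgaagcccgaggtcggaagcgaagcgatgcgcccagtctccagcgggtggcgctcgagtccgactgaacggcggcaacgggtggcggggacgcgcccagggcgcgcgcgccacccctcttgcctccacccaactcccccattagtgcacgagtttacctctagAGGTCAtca
Hoxb8: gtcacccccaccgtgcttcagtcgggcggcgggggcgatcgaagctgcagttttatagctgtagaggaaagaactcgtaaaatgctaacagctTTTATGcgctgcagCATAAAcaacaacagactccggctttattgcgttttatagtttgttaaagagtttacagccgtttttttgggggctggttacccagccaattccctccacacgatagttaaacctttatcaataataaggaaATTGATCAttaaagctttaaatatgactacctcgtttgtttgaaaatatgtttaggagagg
Hoxd8: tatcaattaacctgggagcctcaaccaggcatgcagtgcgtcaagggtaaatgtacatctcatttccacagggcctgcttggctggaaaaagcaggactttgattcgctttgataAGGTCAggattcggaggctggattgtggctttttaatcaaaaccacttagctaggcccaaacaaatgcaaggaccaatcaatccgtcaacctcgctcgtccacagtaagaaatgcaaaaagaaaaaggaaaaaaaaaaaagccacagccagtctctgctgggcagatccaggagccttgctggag

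The Hoxa2 window held a Hox-Pbx match and a Meis match, the Hoxb8 window a Hox-Pbx match and 2 Cdx-type matches, and those of Hoxa5 and Hoxd8 a retinoic acid receptor match each. Promoters were found for 22 of the 39 Hox genes, 24 windows in all. A Hox-Pbx match was in 4 of the 24 and in 8.85% of the 32851 promoters of all genes, and a Meis match in 2 of 24 and 19.2%. The retinoic acid receptor motif was in 7 of 24 and 16.3%, and the Cdx-type motif in 5 of 24 and 11.9%. Such letter matches are a description of the windows and no evidence of binding. The Hox windows were rich in CpG, with a median of 14.5 CpG sites against 7 over all promoters.

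Across the 22 tested genes, the spread between libraries of the same genotype rose with the paralog group. In controls, the median SD of log2(normalized count + 1) was 0.44 for the 7 genes of groups 1 to 3, 0.58 for the 3 of group 4, 1.21 for the 6 of groups 5 and 6, and 1.59 for the 6 of groups 7 to 9. In KI mice the same medians were 0.56, 0.68, 0.87 and 1.87. Over all 15123 genes tested the median SD was 0.13 in control and 0.17 in KI mice, and the 99th percentile was 1.11 and 1.19. The rank correlation of SD with paralog group over the 22 genes was 0.83 in control and 0.81 in KI libraries, as a description only, since the genes share the same libraries and scarce genes vary more. Hoxd1 was the exception among the rostral genes, with an SD of 0.99 in control libraries.

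The lowest and highest control libraries were 4-fold or more apart for 12 of the 22 Hox genes, namely Hoxd1 and 11 of the 12 tested genes of groups 5 to 9, of which Hoxc5 alone fell short. Among all genes tested, 1.63% reached that span. In KI mice 10 of the 22 did, against 2.33% of all genes. The widest spans were those of Hoxd8, 16.9-fold in controls and 98.3-fold in KI mice (after adding 1 normalized count), while Hoxb3 spanned 1.76-fold and 2.43-fold.

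**Figure D2:**
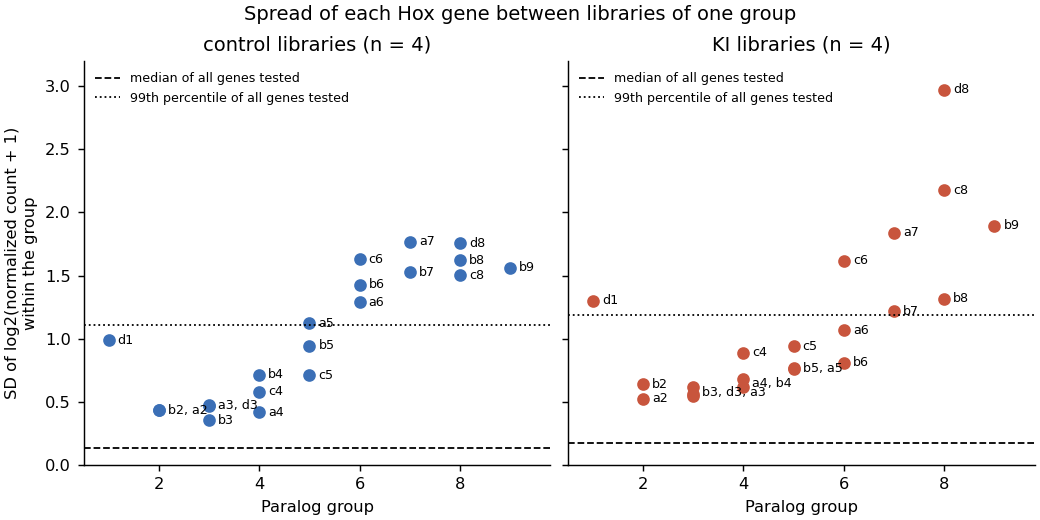
SD of log2(normalized count + 1) within the 4 control (left) and 4 KI libraries (right) for tested Hox genes, labelled by cluster letter and paralog group, plotted against the paralog group. The dashed line is the median and the dotted line the 99th percentile of all genes tested, and the Hox genes of groups 7 to 9 lay above the dotted line in both groups.

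To place each library on the axis, a caudal minus rostral index was taken as the mean log2 deviation of the 11 genes of groups 5 to 8 less that of the 10 genes of groups 1 to 4. Each deviation is from the mean of that gene over the 8 libraries. The index was -0.88, -0.10, 0.81 and -0.25 in control 1 to 4 and 0.27, 0.28, -0.96 and 0.82 in KI 1 to 4. Its mean was -0.10 ± 0.70 (SD, n = 4) in control and 0.10 ± 0.75 (n = 4) in KI mice, so that the group means lay far closer than the libraries of either group. By this index, each group held a library near the caudal end (control 3 and KI 4) and a library near the rostral end (control 1 and KI 3). The place of KI 3 depended on the measure. With summed normalized counts in place of the mean of log2 values, control 1 was lowest at -1.35, while KI 3, at -0.22, lay near KI 1 at -0.03. The mean of log2 values gives scarce genes full weight, and KI 3 had 2 reads for Hoxd8 and 0 for Hoxc8.

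**Figure D3:**
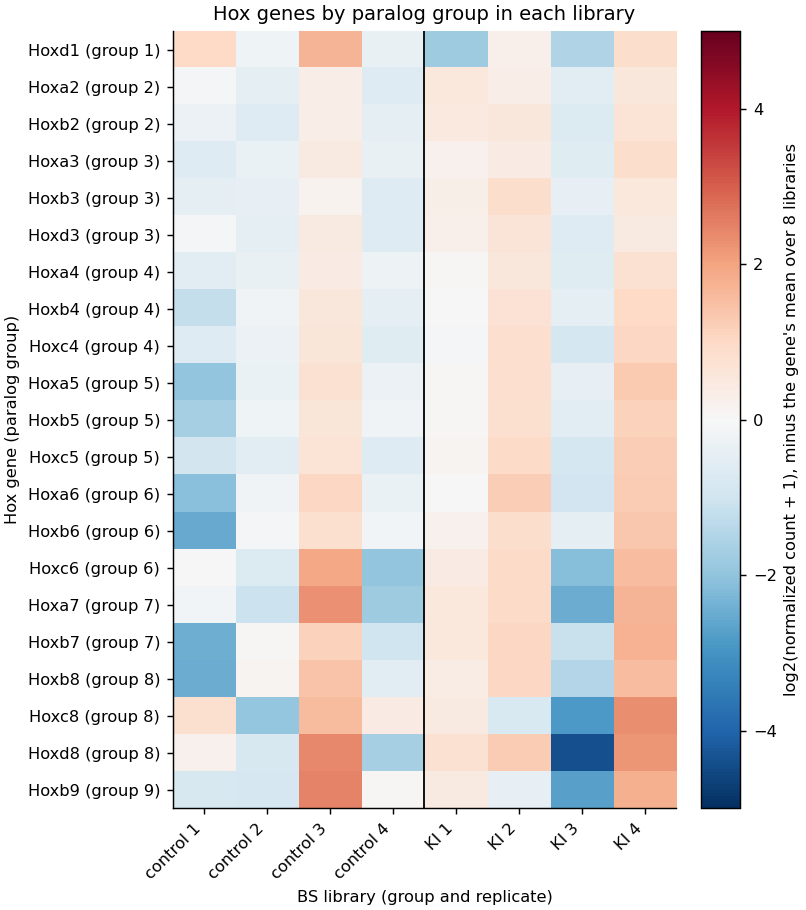
Log2(normalized count + 1) of tested Hox genes, ordered by paralog group (rows), in each BS library (columns), less the mean of the gene over the 8 libraries, in color from blue (below) to red (above). Control 3 and KI 4 were above the mean for every gene drawn and KI 3 below it for each, while control 1 was far below for most genes of groups 5 to 8 but not for Hoxc6, Hoxa7, Hoxc8 or Hoxd8.

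Control 1 and KI 3 were low in different ways. Along the Hoxb cluster, control 1 had 1.13 times the median of the other 3 controls for Hoxb2, 0.962 for Hoxb3, 0.492 for Hoxb4, 0.355 for Hoxb5, 0.183 for Hoxb6, 0.169 for Hoxb7, 0.165 for Hoxb8 and 0.522 for Hoxb9. Along this cluster the ratio thus fell from group 4 to group 6, stayed low to group 8 and was higher again at group 9. In the same library, Hoxa7 was at 2.00, Hoxc6 at 1.60, Hoxc8 at 1.32 and Hoxd8 at 2.02 times that median, so these 4 were not short. KI 3 had 0.420 times the median of the other 3 KI libraries for Hoxb2, 0.397 for Hoxb5, 0.383 for Hoxb6, 0.219 for Hoxb7, 0.176 for Hoxb8 and 0.0777 for Hoxb9. In that library Hoxa7 (0.0806), Hoxc6 (0.109) and Hoxd8 (0.0131) were low as well. Of the 12 tested genes of groups 5 to 9, control 1 was below KI 3 for 7 (Hoxa5, Hoxa6, Hoxc5 and Hoxb5 to Hoxb8) and above it for 5 (Hoxa7, Hoxb9, Hoxc6, Hoxc8 and Hoxd8).

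**Figure D4:**
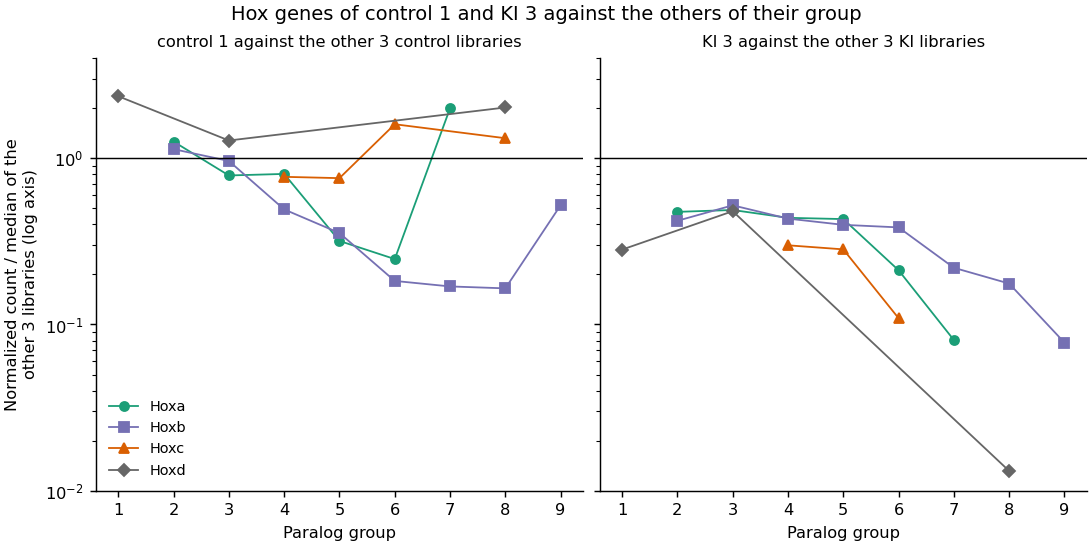
Normalized count of tested Hox genes in control 1 (left) and KI 3 (right) divided by the median of the other 3 libraries of its group (log axis), against the paralog group, with a line for each cluster. Control 1 fell to 0.165 for Hoxb8 but was at 2.02 for Hoxd8, whereas KI 3 was below 1 throughout and reached 0.0131 for Hoxd8, with Hoxc8, at 0 reads, not drawn.

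The sum of forebrain and midbrain genes went with the Hox index only in part. It was high in KI 3 but not in control 1, the libraries near the rostral end. It was also high in control 4, whose index was -0.25. The summed level of 13 forebrain and midbrain genes was 1230 in control 4 and 1783 in KI 3, 581 in control 2 and 311 to 418 in the other 5 libraries. Named after their values were seen, Lhx9, a dorsal midbrain gene, was at 477 in control 4 and 916 in KI 3 against 41.9 to 154 elsewhere, and Six3 at 175 and 201 against 0 to 47.9. Control 1, with the lowest Hoxb5 to Hoxb8, had Lhx9 at 41.9 and Six3 at 0. En1, of the midbrain and first rhombomere, was at 200 in control 2, 182 in control 4 and 97.2 in KI 3, and at 14.9 to 51.7 in the other 5. The forebrain genes of the list, also named after their values were seen, did not share a pattern. Emx2 was at 72.3 in control 4 and 72.4 in KI 3 against 0 to 8.46 elsewhere, Neurod6 was at 86.5 to 181 in the 8 libraries, and Emx1 was at most 4.56 in any. Control 4 and KI 3 were also the libraries low in Ttr. The summed level of 14 choroid plexus markers, Ttr included, was 18177 and 5882 there against 28758 to 179106 elsewhere. Other members, named after their values were seen, did not all share this. Folr1 was at 9.765 and 7.24 there against 102 to 668 elsewhere. Enpp2 was at 17279 in control 4, above 12075 in KI 1, and Otx2 was highest in KI 3, at 399. Of 12 BS neuron genes, summed to 6635 in KI 3 and 11491 to 18434 elsewhere, all were detected in every library. The largest member of that sum was Slc6a5, at 4952 in KI 3 and 7274 to 13354 elsewhere. The other members were not alike. Chat was lowest in KI 3, at 152, whereas Gata3, at 212 there, lay within the 26.4 to 274 of the other libraries. The part of dissection level in the Hox values was not tested, because no source used here records it.

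The 17 genes under the filter were those of the far caudal groups, with Hoxb1 and Hoxd4. No read was counted in any library for 8 of them (Hoxa11, Hoxa13, Hoxb13, Hoxc11, Hoxc12, Hoxc13, Hoxd4 and Hoxd12), where a count of 0 allows up to 3 reads per library. The other 9 had 1 to 45 reads over the 8 libraries. Hoxc10, which takes part in lumbar motor neuron identity, had 9 of its 11 reads in control 4, and Hoxc9, of thoracic identity, had its 2 reads there. Groups 10 to 13 together had 17 reads in control 4 and 1 to 7 in each other library, although control 4 was low for Hoxa7, Hoxc6 and Hoxd8. Hoxd13 had 1 to 5 reads in each library. Hoxd4 shares 52.3% of its exon bases with other genes, and reads in shared exons were counted for neither gene. Its 1406 unshared exon bases held no read either, whereas Hoxd3, with 1557 such bases, had 2838 reads. The exons used here may differ from those the study counted on. Why Hoxd4 had no read was not tested, and the zero alone does not show that it is silent. The shared part is 62.8% for Hoxd3 and 52.9% for Hoxb3, whose levels are incomplete, and 27.3% or less for the other tested Hox genes.

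Whether hPDGFRA changed the Hox genes was asked by comparing KI with control mice over all 15123 genes (limma, Benjamini-Hochberg adjustment at 0.05). None of the 22 Hox genes rose and none fell, where 12.0% of all genes tested were higher and 12.4% lower in KI mice. Before adjustment, 2 genes had a p under 0.05, Hoxb3 among them and both higher in KI mice, a direction in which 18.9% of all genes passed that mark. The KI and control libraries overlapped for every one of the 22 genes, whereas 25.5% of all genes had the groups fully apart. On the recovered reads, edgeR's quasi-likelihood test called 0 Hox genes and the DESeq2 Wald test called 1, Hoxb3. The labels do not say whether the mice shared litters, and the p-values measure the spread between these libraries.

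The estimates leaned upward without passing the test. The log2 fold change was above 0 for 18 of the 22 Hox genes (median 0.50), against 49.6% of all genes (median -0.004). The genes are not independent, as a library that is high for a Hox gene is high for its neighbors, and KI 4 alone was the highest library for 15 of the 22. Hoxb3 had a log2 fold change of 0.67 ± 0.27 (SE, adjusted p = 0.0947). The median was 0.47 in groups 1 to 4, where the SE was 0.27 to 0.67, and 0.73 in groups 5 to 8, where it was 0.48 to 1.39. The largest estimate, Hoxb7 at 1.09, had a 95% interval from -0.69 to 2.87. For Hoxd8 (-0.08) the interval ran from -3.21 to 3.05, so that neither a large rise nor a large fall could be told from no change at this spread. The 4 genes below 0 were Hoxd8, Hoxc8 (-0.44), Hoxb9 (-0.46) and Hoxd1 (-1.07 ± 0.67, adjusted p = 0.270).

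**Figure D5:**
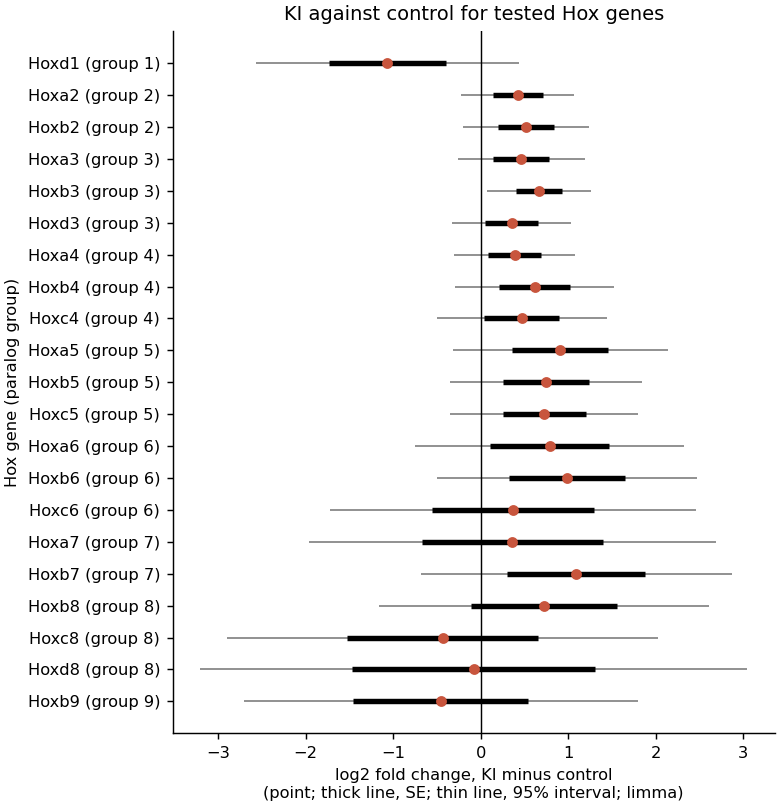
Log2 fold change of KI against control for tested Hox genes, ordered by paralog group, with the SE (thick line) and the 95% interval (thin line) from limma (n = 4 per group). The SE was 0.27 to 0.67 in groups 1 to 4 and 0.48 to 1.39 in groups 5 to 8, and all intervals drawn but that of Hoxb3 included 0.

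The calls moved with the choice of libraries. Without KI 3, Hoxb3 and Hoxb2 passed the threshold, and without both libraries low in Ttr (control 4 and KI 3) Hoxb3 did, with a median log2 fold change of 0.79 over the 22 genes. Without KI 4, the median was 0.32 and 16 genes were above 0, with no call. With log2 Xist as a covariate, 4 genes were higher in KI mice (Hoxa5, Hoxb4, Hoxb5 and Hoxb7), the smallest adjusted p being 0.0374 (limma). Within the 5 libraries low in Xist alone, a comparison chosen after seeing the data, no Hox gene passed and the median was 0.61. The 3 libraries high in Xist hold a single KI library and were not tested on their own.

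The antisense and noncoding transcripts of the Hox clusters were compared in the same fit. Hotairm1, of the Hoxa cluster, was at 127, 102, 183 and 94.7 in control 1 to 4 and at 271, 247, 146 and 256 in KI 1 to 4. It was higher in KI mice (log2 fold change 0.86 ± 0.25, adjusted p = 0.0363, limma), although KI 3 lay within the control range. The rest did not pass. Hoxb5os was at 2.67 to 9.12 in control and 7.24 to 29.8 in KI mice (adjusted p = 0.0605), and the means were 55.1 and 91.3 for Hoxaas2 (adjusted p = 0.162) and 14.3 and 25.4 for Hoxaas3 (adjusted p = 0.197). Hottip, Hotair and Hoxa11os were at 0 in every library. The reads were counted without strand, and ambiguous reads were left out. Those from overlapping exons of a Hox gene and its antisense partner were thus counted for neither, and both levels are incomplete there.

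The genes that read, set and keep the Hox code were then examined. None of the 9 TALE cofactor genes passed the test (median log2 fold change 0.06), and their estimates ran from -0.05 for Pknox1 to 0.50 for Pbx4 (adjusted p = 0.154, limma). Of 13 tested genes of retinoic acid supply, breakdown and reception, 2 rose in KI mice, where 12.0% of all genes did. They were Aldh1a1, a retinaldehyde dehydrogenase (0.81 ± 0.24, adjusted p = 0.0390), and Rdh10, which makes retinaldehyde (0.35 ± 0.10, adjusted p = 0.0365). For Aldh1a1 the groups overlapped, with KI 4 at 5286 below control 1 at 5519. None fell, the lowest estimate being that of Stra6, the retinol carrier receptor, at -0.53. The 6 tested upstream regulators gave no call, and Cdx2 and Fgf8 were at 0 throughout.

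Among 27 Polycomb genes, 2 rose, Suz12 of the histone H3 methylating complex (0.45 ± 0.07, adjusted p = 0.00848) and Pcgf5 (0.47 ± 0.10), and 4 fell, Phc1 (-0.52 ± 0.08), Phc2 (-0.44 ± 0.09), Jarid2 (-0.36 ± 0.09) and the methyltransferase Ezh2 (-0.57 ± 0.16, adjusted p = 0.0333). The calls thus went both ways within the group that keeps Hox genes silent, with a median of -0.03 over the list. Among 13 trithorax genes, which keep Hox genes active, 6 fell, with Men1 (-0.38 ± 0.07), Kdm6b (-0.43 ± 0.08), Kmt2b (-0.36 ± 0.08) and Ash2l (-0.28 ± 0.06) having the smallest p, and Dpy30 rose (0.49 ± 0.09, adjusted p = 0.0119). The 10 tested non-Hox genes beside the clusters gave 2 calls, Skap2 beside the Hoxa cluster at 0.65 ± 0.16 and Calcoco1 near the Hoxc cluster at -0.32 ± 0.07. These lists are described by their counts alone, beside the 12.0% higher and 12.4% lower among all genes.

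Markers of brain levels and cell types were counted in the same way, beside the 12.0% higher and 12.4% lower among all genes. These short lists too are described by their counts alone. No gene passed among 9 tested forebrain and midbrain, 11 cerebellar and anterior hindbrain, 12 BS neuron and 14 choroid plexus genes, although the choroid plexus median was -1.17. All 7 OPC markers and 3 of 6 mature OL markers were lower in KI mice, and 4 of 7 astrocyte markers were higher, Gja1 (0.70) and Slc1a2 (0.89) among them. Pan-neuronal markers gave 2 higher and 1 lower of 8, blood genes 3 higher of 7, endothelial markers 2 lower of 5, meningeal fibroblast markers 2 lower of 8, and microglia markers none of 5. The summed pan-neuronal level was 151488 to 160965 in controls and 180400 to 193191 in KI mice, a range without overlap. The genes of that list did not move together, with Snap25 (log2 fold change 0.42) and Map2 (0.67) higher and Syn1 (-0.36) lower. The part of neuronal content in the Hox estimates was not tested.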

How the data were processed

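The table deposited by the authors holds a column for each of the 8 BS libraries, and groups were taken from the sample labels. The submitters' notes name mm10, STAR 2.7, HTSeq and DESeq2, and the methods give counting without strand, with ambiguous reads left out. The deposited signal is a normalized count, a gene's reads over the DESeq2 size factor of the library. Undoing this gave whole reads for 100% of the values, at a tolerance of 0.01. The authors' own fold changes and p-values in the table were not used. Of 24709 lines, 628 repeated a gene and were dropped, leaving 24081.

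The 15123 genes whose mean normalized count reached 10 were compared on log2(normalized count + 1), which understates changes of scarce genes, with limma 3.58.1 in R 4.3.3, a mean-variance trend and Benjamini-Hochberg adjustment at 0.05. DESeq2 1.42.0 and edgeR 4.0.16 on the recovered reads, TMM normalization, other pseudocounts and filters, the replicate block, an Xist covariate and left-out libraries were alternatives. The steps were tested on simulated counts. Gene positions are those of GRCm38 (mm10), with exons of GENCODE M21 and promoters of RefSeq.

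The tested Hox genes were named, the others given by range and count, with antisense Hox transcripts, Ttr and Xist. Of each of 18 lists, at most 4 called members in each direction, taken by smallest p, and the member with the most opposite estimate were to be named. Beyond this, the lowest and highest TALE cofactors, Rara, Rarg, genes at 0 and the genes of brain levels, choroid plexus and BS neurons were named after their values were seen. The members and lists were chosen with earlier results of these data known. A few genes are not reported here by name or drawn, and they remain in the counts and medians.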

Additional observations from a re-analysis of the deposited data

Results flagged for a closer look

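In controls, 4 Hox genes had a library far from the other 3, in each case control 3 on the high side. Hoxa7 was at 192 normalized counts there against 10.7 to 35.7 in the other controls, Hoxb9 at 113 against 10.3 to 20.5, Hoxc5 at 381 against 125 to 165, and Hoxd8 at 347 against 19.5 to 74.0. The gap to the nearest library took 0.833 to 0.901 of the whole range, more than Dixon's test allows for 4 samples at the 95% level. The gaps were taken on normalized counts and not on log2 values, a scale that favors flags on the high side. No KI library was flagged on that scale, although Hoxd8 was at 2.07 in KI 3 against 109 to 301 in the other KI libraries. Over 44 gene and group combinations examined, chance gives about 1 flag in 20, and the genes share their libraries. In KI mice, KI 4 reached 68.9 for Hoxb9 and 301 for Hoxd8.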

How the results depend on the processing

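Of 15123 genes tested, 3685 passed in the comparison as reported. The count was 4417 with DESeq2, 3627 with edgeR, 2210 with log2 Xist as a covariate, 1836 without the libraries low in Ttr, 1910 in the libraries low in Xist alone (chosen after seeing the data), 0 with the replicate block, and 888 to 5296 with single libraries left out, lowest without control 2 and highest without KI 4. The block takes up degrees of freedom, and the labels state no pairs. The deviations of same-numbered libraries had correlations of 0.26, -0.12, -0.46 and -0.36, and KI 1 alone matched best the control of its number. Whether any of them shared a litter or batch was not tested. The number of Hox genes higher in KI mice was 0 as reported, 1 with DESeq2, 4 with the Xist covariate, 1 without the libraries low in Ttr and 0 to 2 with single libraries left out. It was 0 with the replicate block and in the other settings run. No setting run gave a Hox gene lower in KI mice.

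Over the 22 Hox genes, 386 of 415 alternative estimates kept direction and side of the threshold, 8 newly passed and 21 changed sign, all in genes far from the threshold. Hoxd8 became positive with DESeq2 (0.26), edgeR (0.25), a pseudocount of 10 (0.21), the Xist covariate (0.89), without the libraries low in Ttr (0.81), without control 3 (0.71) and without KI 3 (1.38). Hoxc8 did with DESeq2 (0.17), edgeR (0.14), the Xist covariate (0.18), without the libraries low in Ttr (0.52), without control 3 (0.02) and without KI 3 (0.45). Hoxb9 did with the Xist covariate (0.43), without the libraries low in Ttr (0.33), without control 3 (0.30) and without KI 3 (0.38). Hoxa7 became negative without control 4 (-0.17) and without KI 4 (-0.15), and Hoxc6 likewise (-0.22 and -0.08). With single libraries left out, the estimates of these genes ran from -0.83 to 1.38 (Hoxd8), -1.28 to 0.45 (Hoxc8), -1.13 to 0.38 (Hoxb9), -0.17 to 1.25 (Hoxa7) and -0.22 to 1.15 (Hoxc6). The cause was not tested. Scarce genes such as Hoxc8, with 89 reads in all, are limited by depth.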

Other observations

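Cerebellar granule neuron genes, named after their values were seen, followed neither the Hox index nor the genotype. Gabra6, a granule neuron receptor subunit, was at 176, 212, 8.21 and 8.79 normalized counts in control 1 to 4 and at 404, 6.69, 42.4 and 95.3 in KI 1 to 4. Cbln3 was highest in the same library, at 1069 in KI 1, and lowest at 79.3 in control 3. The BS noradrenergic transporter Slc6a2 was at 582, 1067, 253 and 138 in controls and at 184, 64.7, 178 and 127 in KI mice, and Tph2, the serotonin-synthesizing enzyme, was at 554 to 2390 in controls and at 79.6 in KI 3 against 521 to 936 in the other KI libraries.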
